A study of Drosophila melanogaster with 11 samples.

Results

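The yolk protein genes of Drosophila melanogaster, Yp1, Yp2 and Yp3, were followed here in third-instar larvae that carried a transgene directed at heterochromatin protein 1 (HP1), the activator that drives it, or both. They were found by name in the platform annotation, which gives each of them 1 probeset of its own, so that the family was 3 of 18769 probesets tested. Total RNA of whole larvae had been hybridised to 11 Affymetrix Drosophila 2.0 arrays, 5 of females and 6 of males. Larvae came from independent populations, per the design text, but no label ties an array to one, so p-values measure the spread between arrays, which may be technical.

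The first genotype carried both the transgene labelled P and the act-Gal4 driver (P/act-Gal4), with 1 array of females and 2 of males. The second carried act-Gal4 alone (act-Gal4 control) and the third carried P alone (P control), each with 2 arrays of females and 2 of males. All larvae were in a y w background and each transgene is written in 1 copy, in the place of the third chromosome. P is understood as the HP1-21 line that the design names, taken here to be an RNA interference construct against HP1, and act-Gal4 as a driver that makes the Gal4 activator throughout the body under an Actin promoter. The transcript of HP1 itself had log2 intensities of 7.84 and 7.52 in P/act-Gal4 males against 8.03 to 8.39 in control males. It was 8.02 on the female array labelled P/act-Gal4, against 7.95 to 8.06 in control females. The label of this array was thus not borne out by a lower HP1 transcript, and whether the label is right was not tested. Every female value with both transgenes below rests on that 1 array. The sex labels were borne out by genes of the testis, whose 32 measured members summed to 369 to 539 intensity units on female arrays and to 9527 to 13393 on male arrays.

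Yolk proteins are the nutrient store that the mother packs into the egg. In adult females they are made by the fat body and by the follicle cells of the ovary, secreted, and taken up by the growing oocyte through the receptor Yolkless. All 3 genes lie on the X chromosome. Yp1 and Yp2 are immediate neighbours that are transcribed away from each other and share control regions, and Yp3 stands apart. The sex of the fat body is set through the splicing cascade of Sxl, tra and dsx, and the female and male proteins of dsx bind the yolk protein genes and raise or lower their transcription. Ecdysone and juvenile hormone act on them as well. They are known as genes of adult life, so a larva has neither laid down yolk nor formed egg chambers.

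In these larvae Yp3 was the family member with a clear signal, and it was a female one. On the female array labelled P/act-Gal4 it had a log2 intensity of 4.90, against 6.55 and 6.52 in act-Gal4 control females and 5.54 and 5.29 in P control females. In males it was 3.34 and 3.13 with both transgenes, against 3.39 and 3.47 in the act-Gal4 control and 3.48 and 3.51 in the P control. Every female array lay above every male array, with a gap of 1.39 between the lowest female and the highest male value; 12.1% of all tested probesets were separated in this way. On the linear scale Yp3 reached 29.8 to 93.5 in females and 8.76 to 11.4 in males.

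Yp1 and Yp2 were dim in both sexes. Yp1 stood at 3.40 on the female array labelled P/act-Gal4, against 3.83 and 3.39 in act-Gal4 control females and 3.52 and 3.29 in P control females. In males it was 3.09 and 2.81 with both transgenes, against 3.37 and 2.86 in the act-Gal4 control and 2.80 and 2.84 in the P control. The sexes overlapped for Yp1, through the first act-Gal4 control male array.

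Yp2 was at 3.20 on the female array labelled P/act-Gal4, against 3.30 and 3.32 in act-Gal4 control females and 2.89 and 3.29 in P control females. In males it was 2.81 and 2.73 with both transgenes, against 2.84 and 2.88 in the act-Gal4 control and 2.80 and 2.60 in the P control. Its female arrays lay above its male arrays by only 0.0106, less than the distance between the replicates of the P control females, 0.405.

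**Figure D1:**
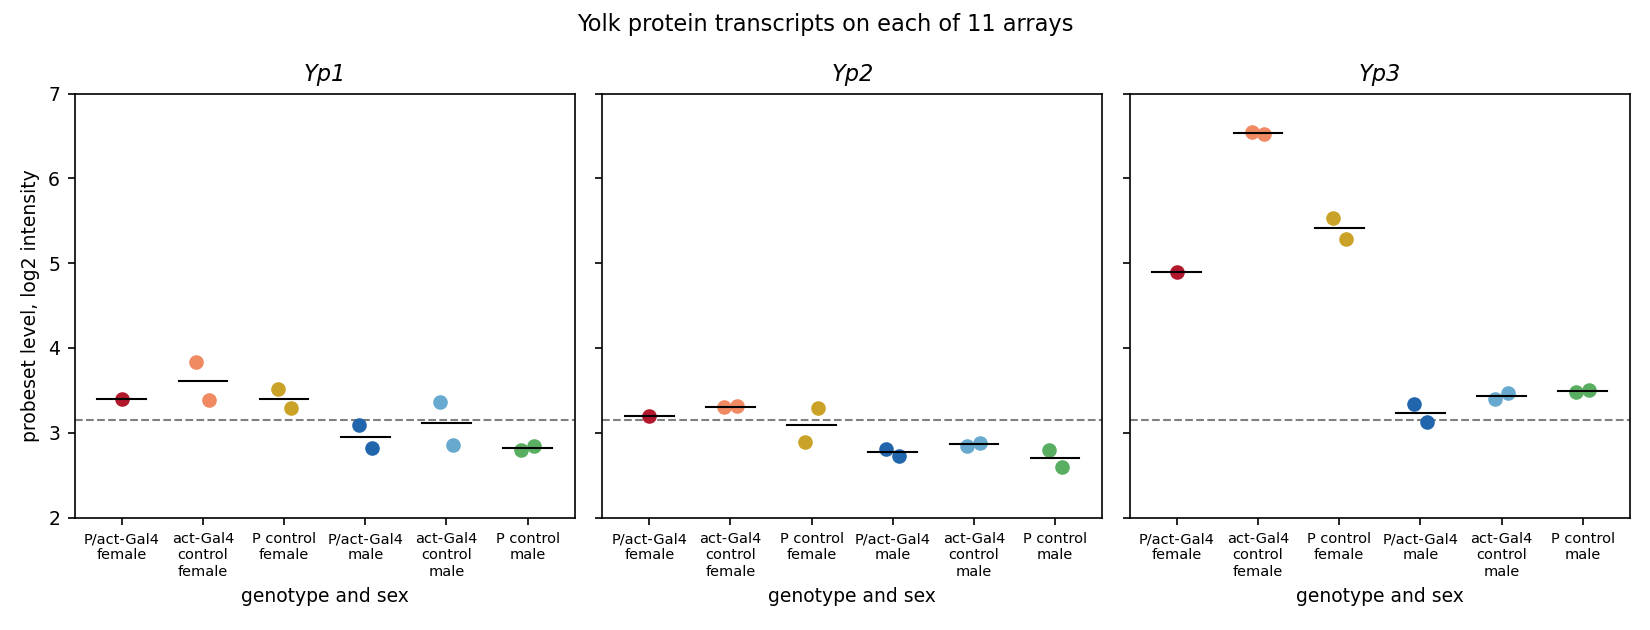
Log2 intensity of the Yp1, Yp2 and Yp3 probesets on each array, by genotype and sex. Points are arrays, horizontal bars are group means, and the dashed line at 3.15 marks the highest 95th percentile of Y-linked probesets on a female array; Yp3 is the member whose female arrays, at 4.90 to 6.55, stand well above it.

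How much of the low signal is transcript was read from genes that should be silent. On the female arrays, which hold no Y chromosome, the 6 probesets of 4 Y-linked genes had a 95th percentile of 2.87 to 3.15. Means at or under the upper of these are called not told apart from background here; with so few probesets this level is rough, and probesets differ in their own background. By it Yp1 in males (2.97 over 4 control arrays) and Yp2 in males (2.78) were not told apart from background. Female controls were slightly above it, at 3.51 for Yp1 and 3.20 for Yp2, though Yp2 in P control females alone (3.09) was not. A second reading came from 16 eggshell genes of adult follicle cells, at 2.50 to 4.56 on female arrays. Averaged over female arrays, Yp1 lay above 10 of these 16 genes, Yp2 above 7 and Yp3 above 16. In males the counts were 6, 4 and 11. By this reading the female signal of Yp1 and Yp2 lay within the range of those genes. In whole larvae, fewer cells that make a transcript and less transcript per cell cannot be told apart.

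The first comparison asked how the family differed between the sexes in larvae with a single transgene. Yp3 averaged 5.97 ± 0.656 in control females and 3.46 ± 0.0486 in control males (SD, n = 4 each). The difference was 2.51 ± 0.0769 (SE) on the log2 scale, a 5.70-fold higher level in females (adjusted p = 7.7e-11, limma's moderated test with Benjamini-Hochberg adjustment over all probesets). No other of the 18769 probesets had a larger female excess in these controls; the next largest was 2.41 and 5 probesets in all reached 2. This first place was kept under 19 of 21 alternative settings, but many of these could not change it. Limma's options, an adjusted p under 0.1, a common median, subsets of probesets, pooled controls and leaving out a P/act-Gal4 array keep the order. Quantile normalization and leaving out each control array could have changed it and did not. It was lost where each control cross was taken alone. Within the act-Gal4 control 1 probeset exceeded Yp3 and within the P control 25 did.

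Yp1 was 0.54 ± 0.128 higher in control females (adjusted p = 0.00388) and Yp2 0.42 ± 0.0897 higher (adjusted p = 0.00212). These 2 calls say little about the genes, since 60.7% of all probesets were called between the sexes, 44.4% higher and 16.3% lower in control females, and the median over all probesets was itself shifted by 0.17 towards females. Relative to that median the excess was 0.37 for Yp1, 0.25 for Yp2 and 2.34 for Yp3. Of 17 measured eggshell genes, which adult follicle cells transcribe, 9 were called higher in females and none lower, with a median of 0.24, and psd, Femcoat, Cp38 and Vm34Ca differed by 0.46, 0.41, 0.40 and 0.39. Counted from means against the Y-linked background level, the female excess of Yp1 in controls was at least 1.28-fold and that of Yp2 at least 1.04-fold. These bounds carry no sampling error, and they do not hold if the female signal is itself background.

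**Figure D2:**
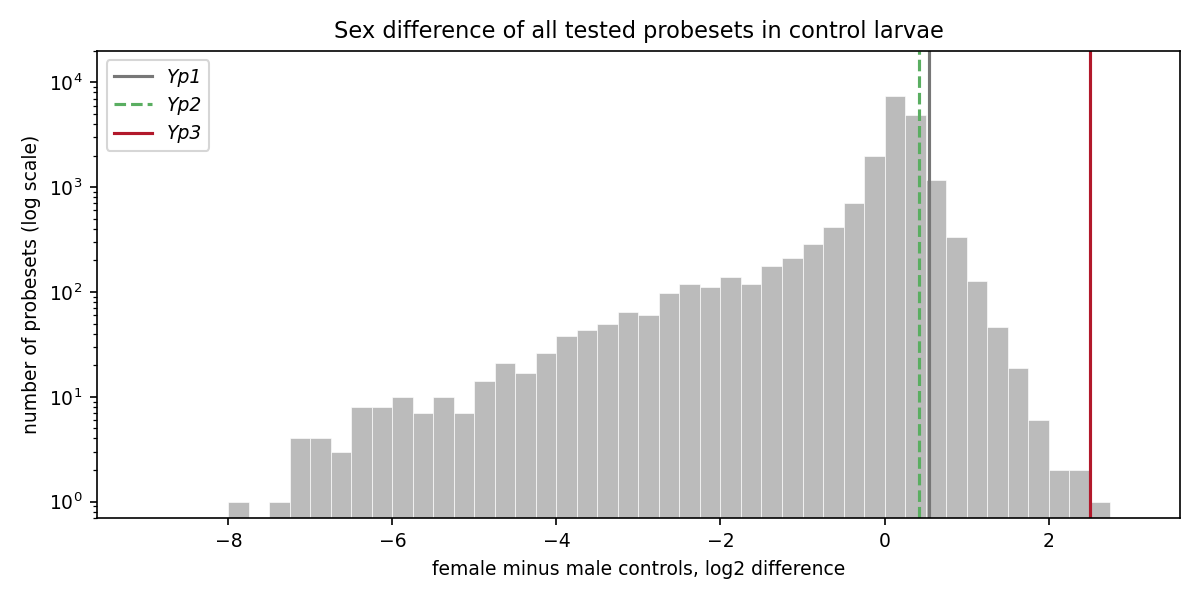
Number of probesets (log scale) by their female minus male log2 difference in control larvae, in bins of 0.25, with the 3 yolk protein genes as vertical lines. Yp1 at 0.54 lies above 92.5% of all probesets and Yp2 at 0.42 above 85.8%, and Yp3 at 2.51 lies at the far female end.

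The sex difference of Yp3 was then taken within each genotype. It was 1.66 ± 0.133 between the female array labelled P/act-Gal4 and the P/act-Gal4 males (3.16-fold, adjusted p = 1.46e-06; 25.8% of probesets were called there, 14.1% higher in females and 11.6% lower). Within the act-Gal4 control it was 3.10 ± 0.109 (8.58-fold, adjusted p = 5.93e-10, 41.1% of probesets called, 26.6% higher and 14.5% lower), and within the P control 1.92 ± 0.109 (3.79-fold, adjusted p = 3.99e-08, 45.3% called, 30.3% higher and 14.9% lower). For Yp1 and Yp2, whose male means were not told apart from background in any genotype, a size has only a bound. The bounds were again counted from means against the Y-linked level, without sampling error. Yp1 was at least 1.19-fold higher in females with both transgenes, 1.37-fold in the act-Gal4 control and 1.19-fold in the P control. Yp2 was at least 1.04-fold higher with both transgenes and 1.12-fold in the act-Gal4 control, and in the P control neither sex was above background. In the fit, with both transgenes neither difference passed, at an adjusted p of 0.167 for Yp1 and 0.0625 for Yp2. Once every array was set to a common median both did, at 0.65 (adjusted p = 0.0316) and 0.63 (adjusted p = 0.00741). With that setting 10430 of the 18769 probesets were called, so these 2 calls also say little about the genes.

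Whether the family changed where both transgenes were present was asked in each sex against the mean of both controls; these comparisons share their control arrays with the sex difference and with the step between controls. In females Yp3 fell by 1.07 ± 0.122 on the log2 scale, a 2.11-fold lower level (adjusted p = 0.000124, 95% interval −1.34 to −0.81). It was 1 of 3 members called, against 15.9% of all probesets called in either direction with 9.20% higher and 6.69% lower. Only 92 probesets had a deeper fall. The 1 array lay below all 4 control arrays, by 0.387 from the lowest; 27.7% of all probesets lay below all 4 by some margin. Against the act-Gal4 control alone the fall was −1.64 ± 0.133 (adjusted p = 2.58e-05; 12.4% of probesets called, 7.48% higher and 4.92% lower). Against the P control alone it was −0.51 ± 0.133 (adjusted p = 0.0188; 19.0% called, 10.3% higher and 8.74% lower). With both controls pooled into 1 group, so that the distance between the crosses counts as error, the fall did not pass (adjusted p = 0.217). Yp1 and Yp2 differed by −0.10 (95% interval −0.55 to 0.34) and 0.0011 (−0.31 to 0.31), with adjusted p of 0.786 and 0.997.

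In males no member was called, against 29.2% of all probesets, 16.3% higher and 12.9% lower. Yp3 averaged 3.24 ± 0.149 in P/act-Gal4 males (SD, n = 2), against 3.46 in control males. The 2 arrays lay below all 4 control arrays, by 0.0509, and the log2 difference was −0.23 ± 0.0942 with an adjusted p just under 0.1. The group means of these males lay just above the Y-linked background. For Yp1 the male difference was −0.0115 (95% interval −0.35 to 0.33) and for Yp2 −0.0133 (−0.25 to 0.23).

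The difference between the sexes in the response of Yp3, female minus male, was −0.85 ± 0.154 (adjusted p = 0.0043; 11.9% of probesets were called, 5.93% higher and 5.96% lower). The call was lost when the P control stood alone as comparison (−0.26, adjusted p = 0.399) and when the controls were pooled (adjusted p = 0.586). The male level lay just above background in every genotype, which limits how far a fall can be seen there.

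**Figure D3:**
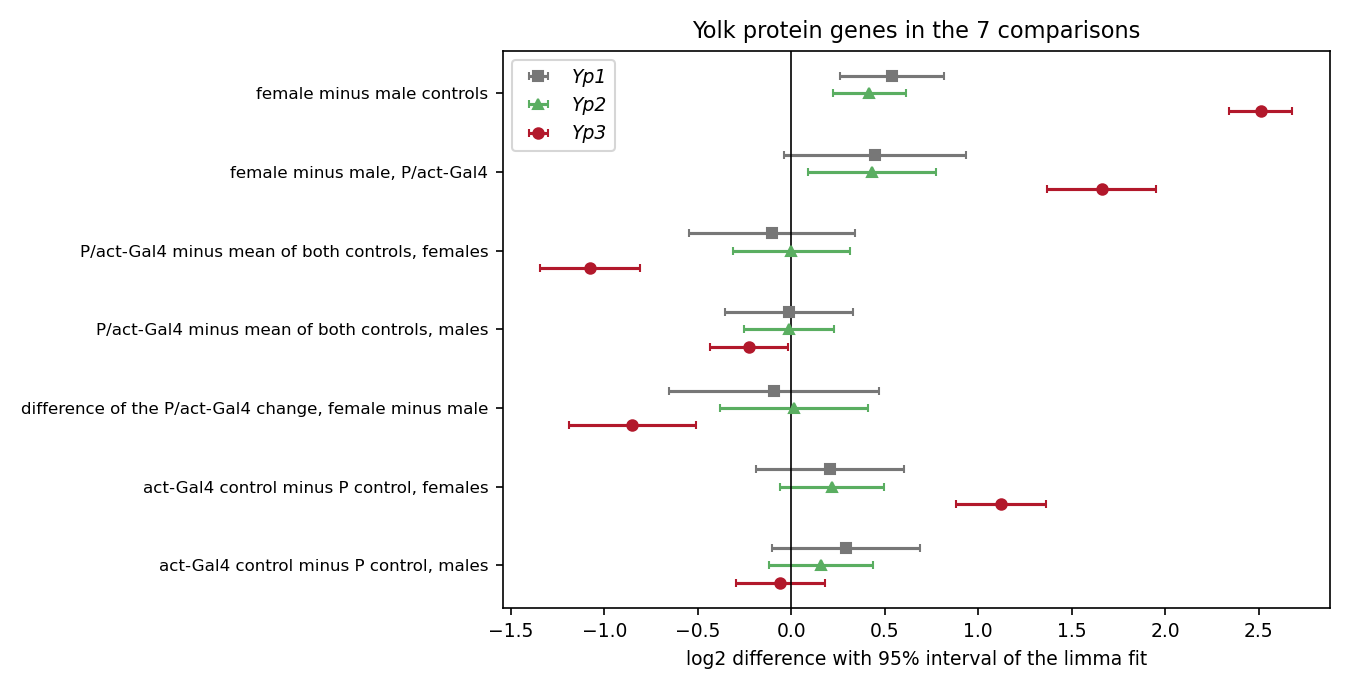
Log2 differences of Yp1, Yp2 and Yp3 in the 7 comparisons, with 95% intervals of the fit. Intervals of Yp1 and Yp2 hold 0 in the 5 comparisons below the sex differences, and Yp3 falls by 1.07 in females with both transgenes and is 1.12 higher in act-Gal4 than in P control females.

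The control crosses themselves differed for Yp3 in females by about as much as the cross with both transgenes did from their mean. Act-Gal4 control females averaged 6.53 ± 0.0180 and P control females 5.41 ± 0.179 (SD, n = 2 each), a difference of 1.12 ± 0.109 (2.18-fold, adjusted p = 2.64e-05; 16.6% of probesets were called, 7.82% higher and 8.75% lower). In males the same crosses stood at 3.43 and 3.49 (−0.0574 ± 0.109, adjusted p = 0.801; 18.4% called, 8.36% lower). Female means thus stood at 4.90 with both transgenes, 5.41 in the P control and 6.53 in the act-Gal4 control. The upper step is between 2 arrays each, and the lower one rests on 1 array whose spread is borrowed from the other groups. No difference between male groups passed. The difference of the control step between the sexes, a comparison added after the values were seen, was 1.18 ± 0.154 for Yp3 (adjusted p = 0.000964; 8.13% of probesets called, 2.94% higher and 5.19% lower). Yp1 was 0.21 and Yp2 0.22 higher in act-Gal4 than in P control females (adjusted p = 0.505 and 0.297), and 0.30 and 0.16 higher in males (adjusted p = 0.323 and 0.466).

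Genes of sex determination were measured as whole transcripts, since the arrays do not separate the sex-specific splice forms. Some of them, such as fru and msl-2, are not on the path to the yolk protein genes given above. In controls 3 of 12 were called higher in females and 4 lower, against 44.4% and 16.3% of all probesets. The transcript of fru, which shapes the male nervous system, was 1.004 higher, and tra2, a splicing partner of tra, stood at −0.72, with msl-2 of male dosage compensation at −0.53. The yolk gene regulator dsx was at −0.47, with group means of 3.14 to 3.23 in females and 3.56 to 3.65 in males; the control female means were not told apart from background, so that the size of its difference is not known. Sxl differed by −0.0663 (adjusted p = 0.362). Against the mean of both controls, the female array labelled P/act-Gal4 had 1 of 12 called higher, tra2 at 0.47, and 1 lower, fru at −0.56, while dsx was at 0.0880 (adjusted p = 0.742). Over all probesets 9.20% were called higher on that array and 6.69% lower. Between the female controls vir, a splicing cofactor of Sxl, was 0.35 higher in the act-Gal4 cross, and fru and Sxl were lower, at −0.59 and −0.54.

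A further list holds 7 measured genes drawn up here as candidate regulators of yolk protein genes. Besides dsx and its partner ix it holds the GATA factor srp, the C/EBP factor slbo, the zinc finger factor Aef1 and the BTB factors bab1 and bab2. On the female array labelled P/act-Gal4 5 of 7 were called higher and none lower, with a median of 0.55 against −0.0356 over all probesets; 9.20% of all probesets were called higher. The gene slbo rose by 1.54 ± 0.112, srp by 0.77 ± 0.168, bab1 by 0.58 ± 0.151 and Aef1 by 0.55 ± 0.138. Again 5 were called against the P control alone (10.3% of all probesets were higher). Against the act-Gal4 control alone 3 were called (7.48% higher), and srp and bab1 did not pass. In P/act-Gal4 males 1 of the 7 was called higher, srp at 0.74, and 1 lower, ix at −0.45 (16.3% and 12.9% of all probesets). Between the female controls srp and slbo were 0.93 and 0.62 higher in the act-Gal4 cross, the cross with the higher Yp3.

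Genes of the larval fat body were set beside Yp3. Of 15 measured ones, the female array labelled P/act-Gal4 had 3 called higher and 5 lower than the mean of both controls, with a median of 0.00036 (9.20% of all probesets were called higher and 6.69% lower). The storage protein receptor gene Fbp1 and the odorant-binding protein gene Obp99b were higher by 0.86 and 0.84. The lipid transfer protein gene Apoltp fell by 0.87 and Col4a1, a collagen of the basement membrane, fell by 0.84. Summed intensity of the list was 45091 on this array, against 47281 and 47761 in act-Gal4 control females and 26668 to 26841 in P control females. Against the act-Gal4 control alone 5 of the 15 were called lower and none higher (4.92% and 7.48% of all probesets), and against the P control alone 5 were higher and 4 lower (10.3% and 8.74%). Between the female controls 9 of 15 were called higher in the act-Gal4 cross and 1 lower (7.82% and 8.75% of all probesets), led by Fbp1 and Obp99b at 1.46 each. In controls 11 of the 15 were higher in females and 3 lower (44.4% and 16.3% of all probesets), with Apoltp at 1.03 and the lipid droplet gene Lsd-1 at 0.81 the largest rises.

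Genes of yolk uptake and processing were read next. The receptor gene yl itself was at 2.96 on the female array labelled P/act-Gal4, against 3.01 and 3.14 as means of the act-Gal4 and P control females, all not told apart from background. Of 15 measured genes of this list 3 were called higher and 2 lower (9.20% and 6.69% of all probesets). The protease gene CtsL3 was 2.72 higher, a value that also rests on the cross: group means were 8.66 on that array, 7.86 in act-Gal4 control females and 4.02 in P control females. In control larvae 9 of the 15 were called higher in females and 1 lower, against 44.4% and 16.3% of all probesets, among them the lipoprotein genes Apoltp (1.03), Mtp (0.67) and apolpp (0.60) and the endocytic receptor gene Cubn (0.66).

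**Figure D4:**
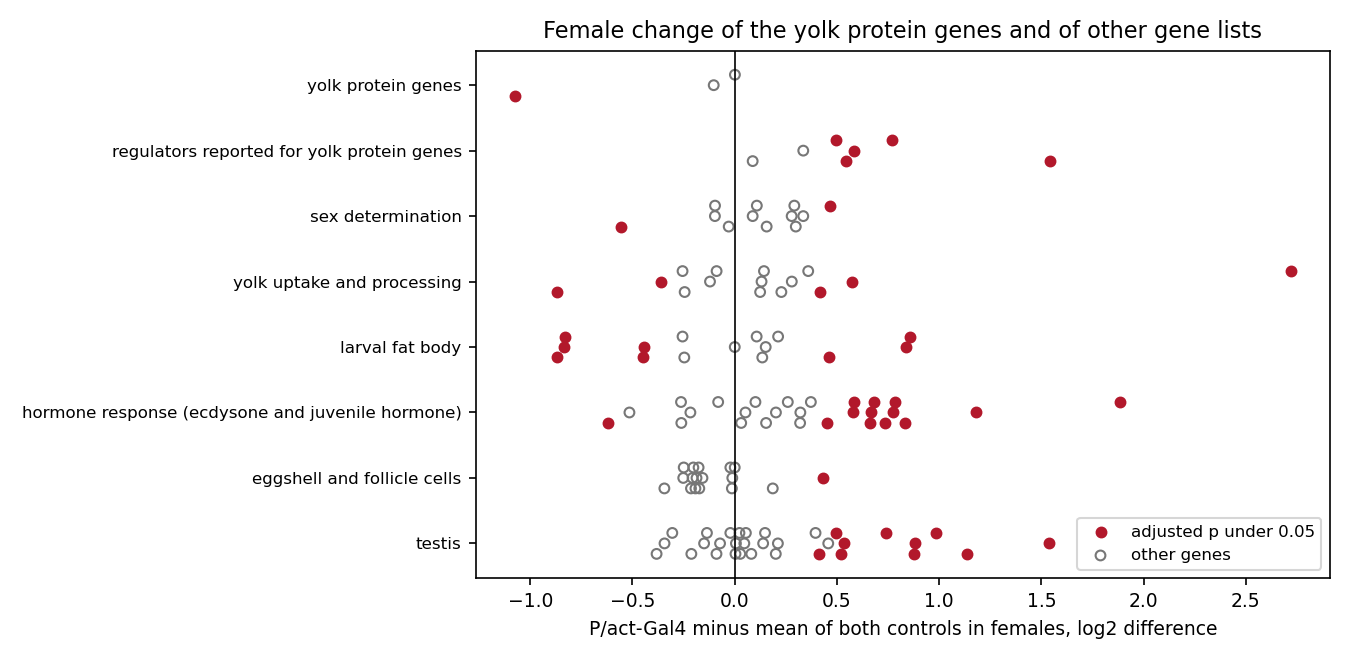
Log2 difference between the female array labelled P/act-Gal4 and the mean of both control crosses, for the yolk protein genes and 7 gene lists; each point is a gene, filled where the adjusted p was under 0.05, and points are spread vertically only for legibility. Yp3 at −1.07 lies below every gene of the lists shown, and 5 of 7 candidate regulators lie on the higher side as filled points. The lowest gene of the salivary glue list, which is not shown, was also at −1.07.

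Of 27 measured hormone response genes, 12 were called higher on the female array labelled P/act-Gal4, 1 lower and 14 not called, with a median of 0.32 (9.20% of all probesets were called higher and 6.69% lower). Against the act-Gal4 control alone 6 were called higher and 1 lower (7.48% and 4.92% of all probesets). Against the P control alone 12 were higher and 3 lower (10.3% and 8.74%). The ecdysone-induced receptor genes Eip78C and Hr4 rose by 1.88 and 1.18, ImpE1 by 0.83 and the early regulator br by 0.79. The summed intensity of this list was 6387 there, against 4073 to 5018 in control females. Salivary glue genes, which mark the late larval stage, summed to 42697 there, against 31234 to 38177 in control females. Of 11 measured ones 4 were called higher and 4 lower (9.20% and 6.69% of all probesets). Against the act-Gal4 control alone none of the 11 was called higher and 1 lower (7.48% and 4.92% of all probesets). Against the P control alone 4 were higher and 4 lower (10.3% and 8.74%). Between the female controls 7 of 27 hormone response genes were called higher in the act-Gal4 cross and 3 lower (7.82% and 8.75% of all probesets). The sums of these markers of larval stage and of tissue thus differed between the same female groups as Yp3, but not in its order. Bright genes lead such sums, and some single genes did follow the order of Yp3 while others did not. In P/act-Gal4, P control and act-Gal4 control females vkg of the fat body list stood at 6.67, 7.26 and 7.75. The glue gene Sgs1 stood at 9.04, 9.53 and 10.03, while Fbp1 stood at 12.90, 11.31 and 12.77. Hormone response and glue genes summed highest on the female array labelled P/act-Gal4, where Yp3 was lowest. In act-Gal4 control females they summed to 4990 to 5018 and 37670 to 38177. In P control females they summed to 4073 to 4274 and 31234 to 31349. Fat body genes summed lowest in P control females. The part of these markers in the level of Yp3 was not tested.

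Markers of other sources of the transcript were also set beside Yp3. Testis genes summed to 539 on the female array labelled P/act-Gal4, above the 369 to 411 of control females, and 10 of 32 were called higher there (9.20% of all probesets), with Mst87F at 1.54 and Mst84Dc at 1.13. That sum was still far below the 9527 of the lowest male array; its part in the lower Yp3 was not tested. Eggshell and follicle cell genes had 1 of 17 called higher on this array, Pcd at 0.43, a gene of pterin metabolism that the list holds without belonging to it. The 15 measured genes of the ovarian germline had 2 higher and none lower. Their largest rise was exu at 0.63, a gene far higher in males here. Its group means were 8.49 to 9.90 in males and 3.03 to 3.77 in females. The germline list also shares bam with the testis list. Neither the eggshell nor the germline list had a member called between the female controls (16.6% of all probesets were called), the pair of crosses among which Yp3 differed by 1.12. Both lists were dim, with medians of 3.24 and 3.14 on the first act-Gal4 control female array, which limits how far a change can be seen. The part of such cells in the level of Yp3 was not tested.

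No measured neighbour of the family on the X had a sex difference as large as that of Yp3, or a called fall in females. Among the 10 nearest measured genes around Yp3, the female minus male difference in controls ran from −0.95 for CG10993 to 0.50 for inaE. Of these 3 were called higher and 1 lower, against 44.4% and 16.3% of all probesets. On the female array labelled P/act-Gal4 1 of the 10 was called (15.9% of all probesets), Grip91 of the microtubule-nucleating complex, and it was higher by 0.74. Rtc1, rdgB and CtsB, the closest on either side, differed there by −0.27, −0.0394 and 0.13 without a call. Between the female controls 2 of the 10 were called higher in the act-Gal4 cross, as Yp3 was, and 1 lower (7.82% and 8.75% of all probesets). These were Grip91 at 0.71, CG11151 at 0.58 and rdgB at −0.33. Around Yp1 and Yp2, 9 measured genes other than the pair had a median sex difference of 0.27. For each of the pair 5 of these were called higher in females, against 44.4% of all probesets. The flanking genes Cht6, a chitinase gene, and CG15312 were 0.79 and 0.64 higher in females, more than either yolk protein gene between them.

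Profiles over all 11 arrays separated the members. After centring each gene on its own mean, Yp1 and Yp2 differed by a root mean square of 0.22 on the log2 scale, while Yp3 differed from them by 1.02 and 1.06. Within 0.25 of Yp1 there were 1343 other single-gene probesets, and within 0.25 of Yp2 there were 5117, so their patterns single out no gene. For Yp3 there was none. The gene closest to Yp3 was the maltase gene Mal-A3, at 0.48, followed by CG32751 (0.52), vanin-like (0.54), CG6067 (0.58) and CG11350 (0.61). All 5 were higher in control females, by 1.34 to 1.79. They were picked for likeness to Yp3 on these same arrays, so their shared pattern was built into the choice. Mal-A3 did not share the step between the female controls (−0.0526). CG32751 (1.67), vanin-like (1.03), CG11350 (0.99) and CG6067 (0.78) did and were called higher in the act-Gal4 cross, against 7.82% of all probesets. With both transgenes in females Mal-A3, vanin-like and CG11350 were called lower, by −0.67, −0.55 and −1.66, and the other two were not called.

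**Figure D5:**
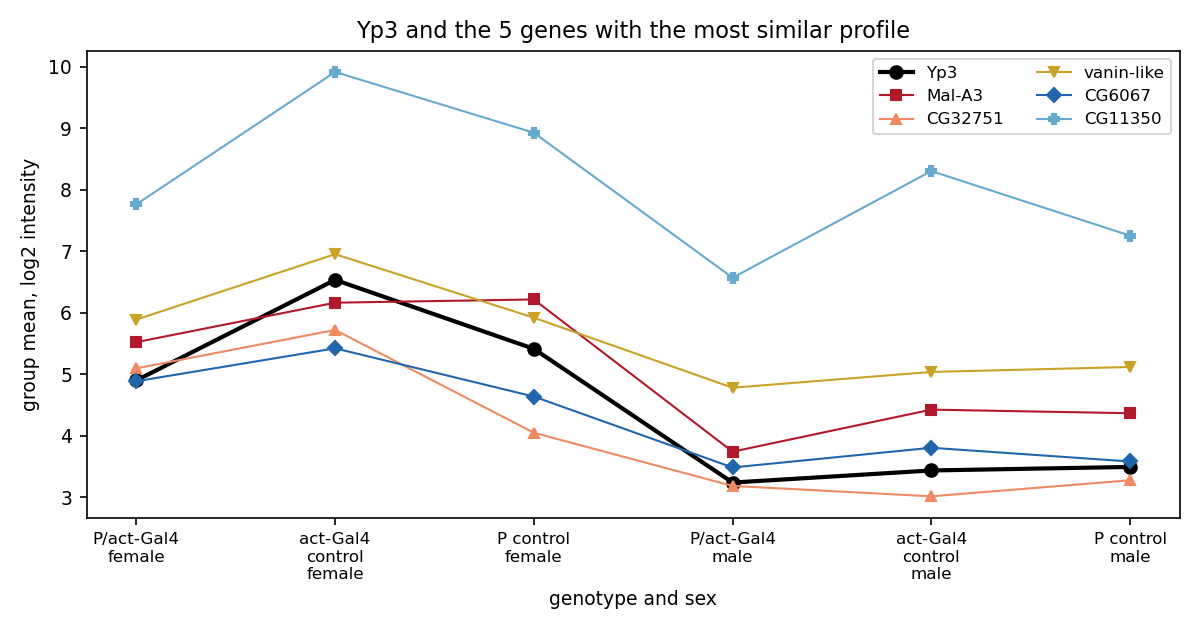
Group means in log2 intensity of Yp3 and of the 5 genes whose centred profile over 11 arrays was nearest to it. Lines join the means of 1 gene across genotype and sex groups. Each gene is lower in every male group than in the female group of the same genotype, a likeness built into the choice of genes. Yp3 stands at 4.90, 6.53 and 5.41 in females and 3.24, 3.43 and 3.49 in males.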

How the data were processed

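Total RNA of whole third-instar larvae was measured on Affymetrix Drosophila 2.0 arrays. The deposited values are intensities per probeset on a linear scale, made with RMA per the submitters' processing notes; its version and options, and whether all arrays were normalized together, are not given in the sources used here. Log2 was taken of every deposited intensity, with no pseudocount and no filter. Of 18952 probesets, 183 control probesets were left out and 18769 tested; the annotation names 1 gene for 13647 of these, several for 402 and no gene for 4720. Symbols were updated through Entrez identifiers to RefSeq Release 6. Median intensity per array was 13.7 to 15.8, replicates differed by a median of 0.0925 to 0.135 (log2), and the number of arrays limits precision.

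Arrays were grouped by title, as strain and description labels conflict with titles for some arrays. Means of the 6 groups were fitted over the 11 arrays together (limma 3.58.1, run in R 4.3.3; 5 residual and 6.29 prior degrees of freedom), called at an adjusted p under 0.05 (Benjamini-Hochberg over all probesets). For the single female array labelled P/act-Gal4 the fit assumes the spread of the remaining groups. The procedure was tested on simulated data. Figures were drawn with matplotlib 3.10.9.

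The members, 9 gene lists and comparisons were chosen with earlier results of these data known. Named genes are up to 4 called members of a list with the largest change, or 2 as values where none was called, the 5 nearest measured genes on either side of a member, and the 5 most alike profiles per member; dsx, Sxl, yl and single neighbours named beyond these were chosen after their values were seen. A gene with several probesets stands by the one of highest mean. Relatives by protein sequence were planned and not analysed here. Alternatives were limma's trend and robust options, quantile normalization, a common median, bright probesets alone, 1 probeset per gene, an adjusted p under 0.1, each control alone, both pooled, arrays of 1 sex, and leaving out each array.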

Additional observations from a re-analysis of the deposited data

Results flagged for a closer look

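The change of Yp3 with both transgenes differed between the sexes by a tested interaction: female minus male −0.85 (adjusted p = 0.0043), from −1.07 on the female array labelled P/act-Gal4 and −0.23 in males. The step between the control crosses also differed between the sexes, in a comparison added after the values were seen. Act-Gal4 minus P control was 1.12 in females and −0.0574 in males, a difference of 1.18 ± 0.154 (adjusted p = 0.000964, 8.13% of probesets called). In both cases the male levels, 3.13 to 3.51, were near the Y-linked background of up to 3.15. No group was large enough for a search for single outlying arrays.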

How the results depend on the processing

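The female excess of Yp3 in controls, its excess with both transgenes and its step between female controls kept direction and call under every alternative run, at 1.92 to 3.10, 1.56 to 1.86 and 0.996 to 1.25. Its fall in females lost the call only with pooled controls (−1.07, adjusted p = 0.217) and ran from −1.64 to −0.51. The sex difference of that change lost it against the P control alone (−0.26) and with pooled controls (−0.85). The male value of Yp3, −0.23, passed only an adjusted p under 0.1. In the sex difference with both transgenes, Yp1 (0.65) and Yp2 (0.63) passed with a common median, and Yp2 (0.43) with limma's trend and at an adjusted p under 0.1. Yp2 also passed there without either P control female array, with 0.39 to 0.48 over all arrays left out in turn. In uncalled male changes, Yp1 and Yp2 changed sign with quantile normalization (0.0331 and 0.0291) and against the P control alone (0.14 and 0.0668). In females Yp1 did so against the P control (0.00037) and Yp2 against the act-Gal4 control (−0.11), as did the sex difference of Yp2 (−0.0134).

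With arrays left out in turn, uncalled values crossed 0 for Yp1 in males (−0.15 to 0.13), females (−0.21 to 0.0080), their difference (−0.23 to 0.0491), the female control step (−0.0153 to 0.43) and the difference of control steps (−0.34 to 0.16). They did so for Yp2 in males (−0.0635 to 0.0369), females (−0.10 to 0.10), their difference (−0.0867 to 0.12) and the difference of control steps (−0.15 to 0.26); its female control step ran from 0.0137 to 0.42, called without P control female replicate 2. The cause was not tested.

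Counts of called probesets moved over 1.5 times as follows. With pooled controls they were 2447 in males (main 5482), 445 in females (2982) and 207 for their difference (2232). With female arrays alone they were 1517 in females and 1612 for the female control step (3110). A common median gave 10430 for sex with both transgenes (4834) and bright probesets alone, fewer being tested, 6574 for sex in controls (11398). The difference of control steps (1526) gave 2322 with limma's trend and 2299 at an adjusted p under 0.1. With arrays left out, counts ran from 3392 to 5905 in males, 1386 to 2594 for the sex difference, 1901 to 3842 for the male control step (3455) and 844 to 1599 for the difference of control steps. Yp1 and Yp2 are not bright probesets and have no value there, and nothing with the female array labelled P/act-Gal4 can be had without it. No paired analysis was possible because the labels give no replicate numbers.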
